A study of Mus musculus with 48 samples.

Results

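The genes described here are 10 of the 14125 genes counted in mouse gastrocnemius, a calf muscle of the hindlimb. They were taken by name as the myostatin and activin pathway of muscle: the ligand Mstn, its target Mss51, the receptor genes Acvr1b, Acvr2b and Tgfbr1, the Smad genes Smad2, Smad3 and Smad7, and the antagonist genes Fst and Fstl3. All 10 were in the count table and all 10 passed the filter on low counts. RNA came from male C57BL6J mice in 48 libraries, each with its own glucose and insulin value, so a library was taken as 1 mouse. Nothing else in the labels says that the libraries are separate animals, and the p-values measure the spread between these libraries.

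Mice drank vehicle (1% ethanol) or corticosterone, the main glucocorticoid of mice, at 100 ug/ml for 2 weeks. They ate a control diet or one with 571 mg/kg of atglistatin, which blocks adipose triglyceride lipase (ATGL), an enzyme by which fat cells release stored fat. The 10 EtOH_CON mice had vehicle water and control food, and the 10 EtOH_ATGLi mice vehicle water and atglistatin food. The 14 Cort_CON mice had corticosterone water and control food, and the 14 Cort_ATGLi mice had both agents. In the labels 9 Cort_CON mice are diabetic and 5 are nondiabetic, as are all mice of the other groups. The labels give no ages and do not say whether the corticosterone water also held ethanol. The gastrocnemius was taken whole and is labelled mixed, so each library pools its fibre types with the other cells of the tissue.

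Myostatin is a secreted ligand of the TGF-beta family that muscle fibres make and that limits their growth. It is made as a precursor, is held latent by its own propeptide, and once released binds the type II receptors ACVR2B and ACVR2A. These recruit the type I receptors ACVR1B (ALK4) or TGFBR1 (ALK5), which phosphorylate SMAD2 and SMAD3, and these enter the nucleus with SMAD4. Activins use the same receptors, follistatin (Fst) and follistatin-like 3 (Fstl3) bind both kinds of ligand, and SMAD7 blocks the receptors from within the cell. Glucocorticoids cause loss of muscle mass, and myostatin has long been studied as 1 of the genes they regulate there. RNA levels say nothing of how much ligand is released from latency or how much SMAD is phosphorylated.

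The libraries held 10453888 to 24034481 counts. Over the 48 libraries the deposited count ranged from 352 to 1414 for Mstn, from 294 to 11206 for Mss51, and from 14 to 126 for Fstl3, the gene with the fewest counts. Library p01 of EtOH_CON agreed least with its group, with a median correlation of 0.952 to the other libraries (0.972 for the next lowest), and in Cort_ATGLi it was p41, with 0.957 (0.964 for the next lowest). Fkbp5, a direct glucocorticoid target, separated the water treatments in every library: its CPM (counts scaled to a common library size, with TMM factors) was 18.8 to 77.3 in vehicle mice and 184 to 456 in corticosterone mice. The labelled tissue held the markers of its kind: the 8 muscle fibre markers (Acta1, Ckm, Ttn, Des, Mb, Tnnt3, Tnnc2 and Actn3) summed to 69900 to 129000 CPM per library.

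Markers of muscle fibres and of other cells moved with corticosterone. Of all genes, 38.4% passed an adjusted p under 0.05 on the control diet and 30% on atglistatin. Of the 8 muscle fibre markers 4 were higher on the control diet, and 3 higher and 1 lower on atglistatin. Of 9 fast fibre markers 5 were higher and 1 lower on each diet. Of 8 slow fibre markers 3 were higher on the control diet and 4 on atglistatin. Of 6 adipocyte markers 1 was higher and 2 lower on the control diet, and 1 was higher on atglistatin. Of 9 markers of fibro-adipogenic progenitors and fibroblasts, 8 were lower on the control diet and 9 on atglistatin. Their summed level was 1830 to 2530 CPM in EtOH_CON and 837 to 1710 CPM in Cort_CON, and 1380 to 2380 CPM in EtOH_ATGLi and 992 to 1290 CPM in Cort_ATGLi. Of 6 tendon markers, 4 were lower on the control diet and 5 on atglistatin, and Scx was higher on both. The tendon markers summed to 232 to 467 CPM in EtOH_CON, 89.5 to 231 CPM in Cort_CON, 207 to 508 CPM in EtOH_ATGLi and 82.4 to 148 CPM in Cort_ATGLi. Of 6 macrophage and leukocyte markers 4 were lower on each diet, and of 6 endothelial markers 3 were lower (Cdh5, Kdr and Tek) and 1 higher (Flt1) on each diet. Of the tendon markers Mkx and Comp were at 0 in a corticosterone library, and no marker of the other lists was at 0 in any library. Of 6 markers of satellite cells and myoblasts 2 were higher and 2 lower on the control diet, and 3 higher and 2 lower on atglistatin. The part of these cells in the results below was not tested. In whole muscle, fewer cells of a type and less RNA per cell cannot be told apart.

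Under corticosterone 7 of the 10 genes changed on each diet at an adjusted p under 0.05. On the control diet 38.4% of all 12592 genes tested passed that threshold, 18.9% as higher and 19.5% as lower. On the atglistatin diet the share was 30%, with 15% higher and 15% lower. Mstn, Mss51, Acvr1b, Tgfbr1 and Smad7 were higher on both diets and Smad3 was lower on both. Acvr2b was lower on the control diet, and Smad2 was lower on the atglistatin diet with an adjusted p close to the threshold. The median log2 fold change of the 10 genes was 0.37 on the control diet and 0.39 on atglistatin, beside 0.00 over all genes on both. The 10 genes were chosen with earlier results of these data known, so their share and median are descriptions and not a test of the set. The comparisons on the 2 diets share no libraries, while those between the diets, given further on, use the same 4 groups again.

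Mstn encodes the ligand and lies on chromosome 1 (53061640 to 53068079, plus strand, GRCm38). Its level in EtOH_CON was 24.3 CPM at the lowest, 36.8 at the median and 42.6 at the highest. In Cort_CON the same values were 33.9, 53.7 and 71.5 CPM. The groups overlapped, but 13 of 14 Cort_CON libraries were above the EtOH_CON mean. The means were 35.3 ± 6.79 CPM (SD, n = 10) and 54.8 ± 10.9 CPM (SD, n = 14). In log2 terms the change was 0.63 (SE 0.14), which is 1.55-fold, with an adjusted p of 0.000225.

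On atglistatin Mstn ran from 28.7 CPM through a median of 37.5 to 48.9 CPM in vehicle mice. In Cort_ATGLi it ran from 28.9 CPM through 55.7 to 97.5 CPM, the widest spread of the 4 groups. Of these 14 libraries 11 were above the EtOH_ATGLi mean, and p41 was the lowest. The fitted log2 fold change was 0.55 (SE 0.14), which is 1.46-fold, with an adjusted p of 0.00168. Leaving out any 1 library kept Mstn past the threshold on both diets, with log2 fold changes of 0.58 to 0.67 on the control diet and 0.46 to 0.60 on atglistatin.

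Mss51 encodes a mitochondrial protein of skeletal muscle whose RNA is known to fall when myostatin is inhibited, and lies on chromosome 14 (20482867 to 20496901, minus strand). In EtOH_CON its level ran from 72.9 CPM through a median of 157 to 180 CPM. Cort_CON ran from 48.8 CPM through 418 to 562 CPM. On the log2 scale the difference was 1.34 (SE 0.36), which is 2.52-fold, with an adjusted p of 0.00284. The rise was not shared by all mice: 10 Cort_CON libraries lay at 368 to 562 CPM, above every EtOH_CON library, and 4 lay at 48.8 to 97.1 CPM, within or below the range of EtOH_CON, with none in between.

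On atglistatin the vehicle mice had 56.0 CPM of Mss51 at the lowest, 157 at the median and 235 at the highest. In Cort_ATGLi 13 libraries lay at 284 to 755 CPM, above every EtOH_ATGLi library, and p41 had 13.5 CPM, the lowest of the 48 libraries, from 294 counts. The median of the group was 364 CPM. The log2 fold change was 1.36 (SE 0.36), which is 2.56-fold, with an adjusted p of 0.0034, and 1.45 with an adjusted p of 0.000298 without p01 and p41.

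**Figure D1:**
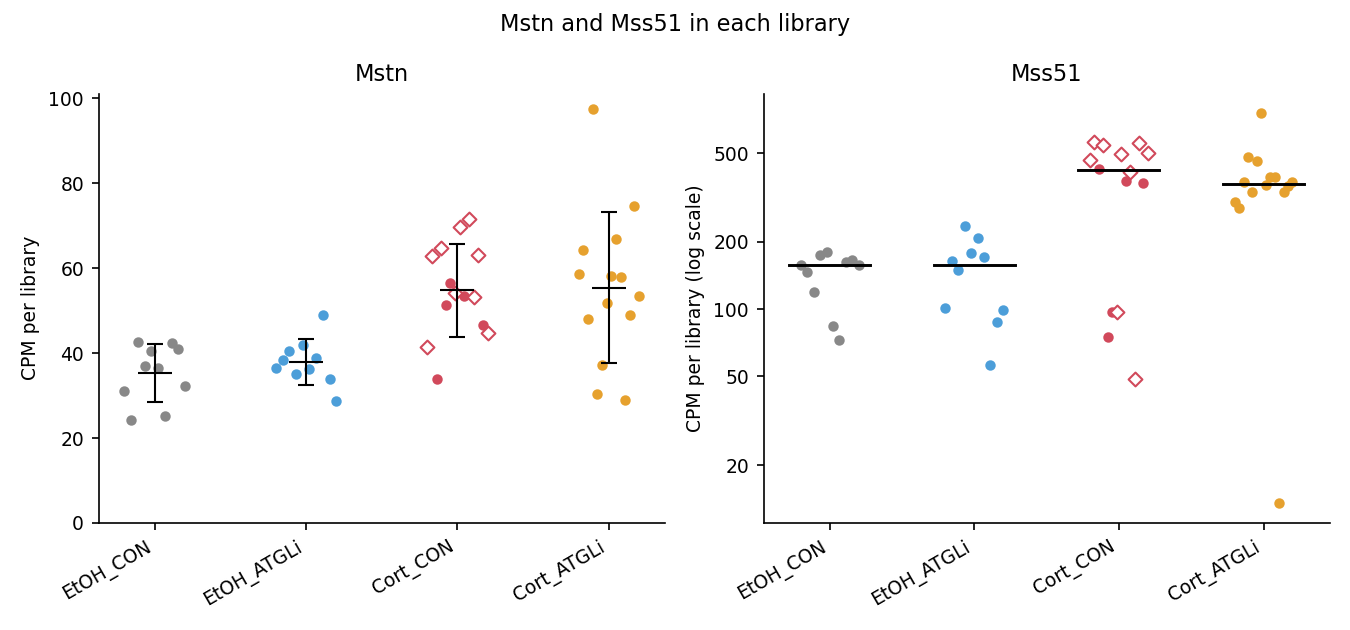
CPM of Mstn (left, linear axis from 0, with mean and SD) and Mss51 (right, log axis, with the median as a line) in each library of the 4 groups; open diamonds are the mice labelled diabetic. Mstn is above the vehicle mean of the same diet in 13 of 14 Cort_CON and 11 of 14 Cort_ATGLi libraries, while Mss51 is high in 10 of 14 Cort_CON and 13 of 14 Cort_ATGLi libraries and low in the rest.

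The 5 corticosterone libraries low in Mss51 were not low in Fkbp5. Its level was 329 to 456 CPM in the 4 Cort_CON libraries and 312 CPM in p41, beside 227 to 366 CPM and 184 to 361 CPM in the other libraries of those groups. Some of them stood apart in other genes. Ighm, the immunoglobulin M heavy chain gene of B cells, was at 43 CPM in p32, 40 in p33 and 43.4 in p34, beside 0.88 CPM in p45 and at most 12 CPM in the other Cort_CON libraries, and at 24.2 to 117 CPM in EtOH_CON. Library p41 was the lowest of Cort_ATGLi in 5 of the 8 muscle fibre markers (Acta1, Ckm, Mb, Tnnt3 and Actn3), with 6130 CPM of Ckm beside a group median of 12600. Of the same 8 markers Des was highest in p41, with 5210 CPM beside a group median of 3520. Ttn was lowest in p24 and Tnnc2 in p18. Library p41 was the highest in 5 of the 6 adipocyte markers (Adipoq, Plin1, Cfd, Retn and Fabp4), with 506 CPM of Fabp4 beside a group median of 231. Of the macrophage and leukocyte markers it was the highest in Cd68, Csf1r, Adgre1 and Mrc1. Ptprc was highest in p18 and Cd14 in p14. The part of these differences in the low Mss51 levels was not tested. Of the 4 Cort_CON mice 2 are labelled diabetic (p34 and p45) and 2 nondiabetic (p32 and p33). Their insulin values, whose unit the labels do not state, were 14.5 in p32, 9.31 in p33, 16.8 in p34 and 29.3 in p45, 4 of the 5 lowest of the group. The other low insulin value was 27.7 in p49, which had 368 CPM of Mss51. Mouse p41 had an insulin value of 2.19, the lowest of Cort_ATGLi and within the EtOH_CON range of 1.19 to 3.46. These libraries were singled out after their Mss51 values were seen, and no test was made on them.

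Mstn values showed no such gap. Within groups the log2 CPM of Mstn and Mss51 had a Pearson r of 0.37 in EtOH_CON, −0.17 in EtOH_ATGLi, 0.06 in Cort_CON and 0.52 in Cort_ATGLi (Spearman rho 0.41, −0.03, 0.28 and 0.21). None of these 4 relations passed a two-sided permutation test: the p-values of r were 0.29, 0.65, 0.83 and 0.078, and the adjusted p-values over the 4 groups 0.58, 0.83, 0.83 and 0.31. The permutation p-values of rho were 0.25, 0.95, 0.32 and 0.46, and adjusted 0.62, 0.95, 0.62 and 0.62. In Cort_ATGLi r fell to −0.09 without p23 and p41, the libraries farthest from the Mstn median, so the value of 0.52 rests on them. In the other groups r without the 2 farthest libraries was 0.01, 0.30 and 0.15.

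The promoters of Mstn, of Mss51 and of Acvr1b, the receptor gene with the largest rise, are shown because all 3 genes were called higher under corticosterone on both diets. Each is the 250 bases before the RefSeq start site (GRCm38.p6), 5′ to 3′ on the gene's own strand. In Mstn (chr1:53061390-53061639, plus strand) capitals mark 4 E-boxes (CANNTG) and a TATAAA box, and in Mss51 (chr14:20496902-20497151, minus strand) the Smad palindrome GTCTAGAC. Acvr1b (chr15:101173822-101174071, plus strand) is printed in lower case throughout.
Mstn: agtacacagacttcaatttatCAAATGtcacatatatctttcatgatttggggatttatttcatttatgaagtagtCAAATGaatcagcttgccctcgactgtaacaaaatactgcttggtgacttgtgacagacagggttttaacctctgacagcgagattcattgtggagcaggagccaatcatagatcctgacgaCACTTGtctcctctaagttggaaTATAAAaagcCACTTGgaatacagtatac
Mss51: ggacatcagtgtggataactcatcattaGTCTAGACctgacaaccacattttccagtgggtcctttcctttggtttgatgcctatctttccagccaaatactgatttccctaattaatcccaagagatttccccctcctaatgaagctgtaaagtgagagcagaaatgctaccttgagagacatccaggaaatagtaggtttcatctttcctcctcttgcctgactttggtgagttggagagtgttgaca
Acvr1b: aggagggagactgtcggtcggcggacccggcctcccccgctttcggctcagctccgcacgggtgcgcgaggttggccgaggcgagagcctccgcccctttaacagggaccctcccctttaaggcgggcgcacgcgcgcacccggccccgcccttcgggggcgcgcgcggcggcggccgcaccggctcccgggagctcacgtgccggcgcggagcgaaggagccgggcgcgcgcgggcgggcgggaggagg

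The 3 windows differ in base composition: GC was 38.4% in Mstn, 43.2% in Mss51 and 78.8% in Acvr1b, beside a median of 52.4% over the 32851 promoters of the table. Of 7 motifs searched, TATAAA was read on the gene's own strand only and the others on both strands. The E-box was found in 66.2% of all promoters and the TATAAA box in 7.59%. In Mstn the E-boxes began at bases −229, −174, −52 and −19 from the start site and the TATAAA box at −29, and Acvr1b held 1 E-box (CACGTG) at −54. The palindrome GTCTAGAC, which SMAD3 and SMAD4 bind in vitro, began at −222 in Mss51 and was found in 55 of the 32851 promoters (0.167%). The short Smad motif CAGAC, in 42.2% of promoters, was found in Mstn at −244 and −120. The glucocorticoid response element, searched as AGAACA and TGTTCT with any 3 bases between them and found in 0.00913% of promoters, the hexamer AGAACA alone, in 16.1%, and the FoxO motif GTAAACA, in 3.17%, were not found as these letters in any of the 3 windows. Promoters of 7 of the 10 genes were matched, and a match describes letters and not a bound site.

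Acvr1b encodes the type I receptor ALK4, shared by activins and myostatin, and lies on chromosome 15 (101174067 to 101213684, plus strand). In EtOH_CON its level ran from 14.1 CPM through a median of 19.1 to 39.8 CPM, the highest value being p01, and the next 21.2 CPM. Cort_CON ran from 26.3 CPM through 37.7 to 52.4 CPM. Apart from p01 the groups did not overlap. In log2 terms the change was 0.87 (SE 0.12), which is 1.83-fold, with an adjusted p of 3.22e-08, and 1.03 without p01 and p41. On atglistatin vehicle mice had 17.6 CPM at the lowest, 21.3 at the median and 24 at the highest. In Cort_ATGLi the values were 25.5, 44.2 and 53.4 CPM, above every EtOH_ATGLi library. The fitted log2 fold change was 1.02 (SE 0.12), which is 2.03-fold, with an adjusted p of 1.13e-09.

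Tgfbr1 encodes ALK5, the type I receptor of TGF-beta that myostatin can also use, and lies on chromosome 4 (47353222 to 47414931, plus strand). In EtOH_CON it ran from 7.74 CPM through a median of 10.5 to 13.2 CPM, and in Cort_CON from 12 CPM through 15.4 to 19.1 CPM. All 14 Cort_CON libraries were above the EtOH_CON mean, with some overlap at the edges. On the log2 scale the difference was 0.57 (SE 0.09), which is 1.48-fold, with an adjusted p of 1.47e-06. Vehicle mice on atglistatin had 8.66 to 12.2 CPM with a median of 10.8, and Cort_ATGLi mice had 12.7 to 22.7 CPM with a median of 16.7, with no overlap. The log2 fold change was 0.62 (SE 0.09), which is 1.54-fold, with an adjusted p of 3.94e-07. These type I receptor genes were the 2 of the 10 whose groups did not overlap on atglistatin, beside 3.45% of all genes.

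Acvr2b encodes the type II receptor with high affinity for myostatin and lies on chromosome 9 (119402118 to 119434995, plus strand). In EtOH_CON it ran from 3.61 CPM through a median of 8.51 to 10.7 CPM, the lowest being p01 and the next 6.93 CPM. Cort_CON had 3.28, 5.70 and 8.26 CPM, and 13 of 14 libraries were below the EtOH_CON mean. In log2 terms the change was −0.51 (SE 0.13), which is 0.702-fold, with an adjusted p of 0.0013. On atglistatin the vehicle group had 6.61 to 10.6 CPM (median 8.08) and Cort_ATGLi had 5.02 to 12 CPM (median 7.28). There the log2 fold change was −0.13 (SE 0.13, 95% interval −0.38 to 0.13) with an adjusted p of 0.503. The difference between the diets was 0.38 (SE 0.18), with an unadjusted p of 0.0415 and an adjusted p of 0.904, so it did not pass the test. Where strand was not counted, reads of Gm47320, an annotated antisense gene outside the count table, could not be told apart from those of Acvr2b.

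**Figure D2:**
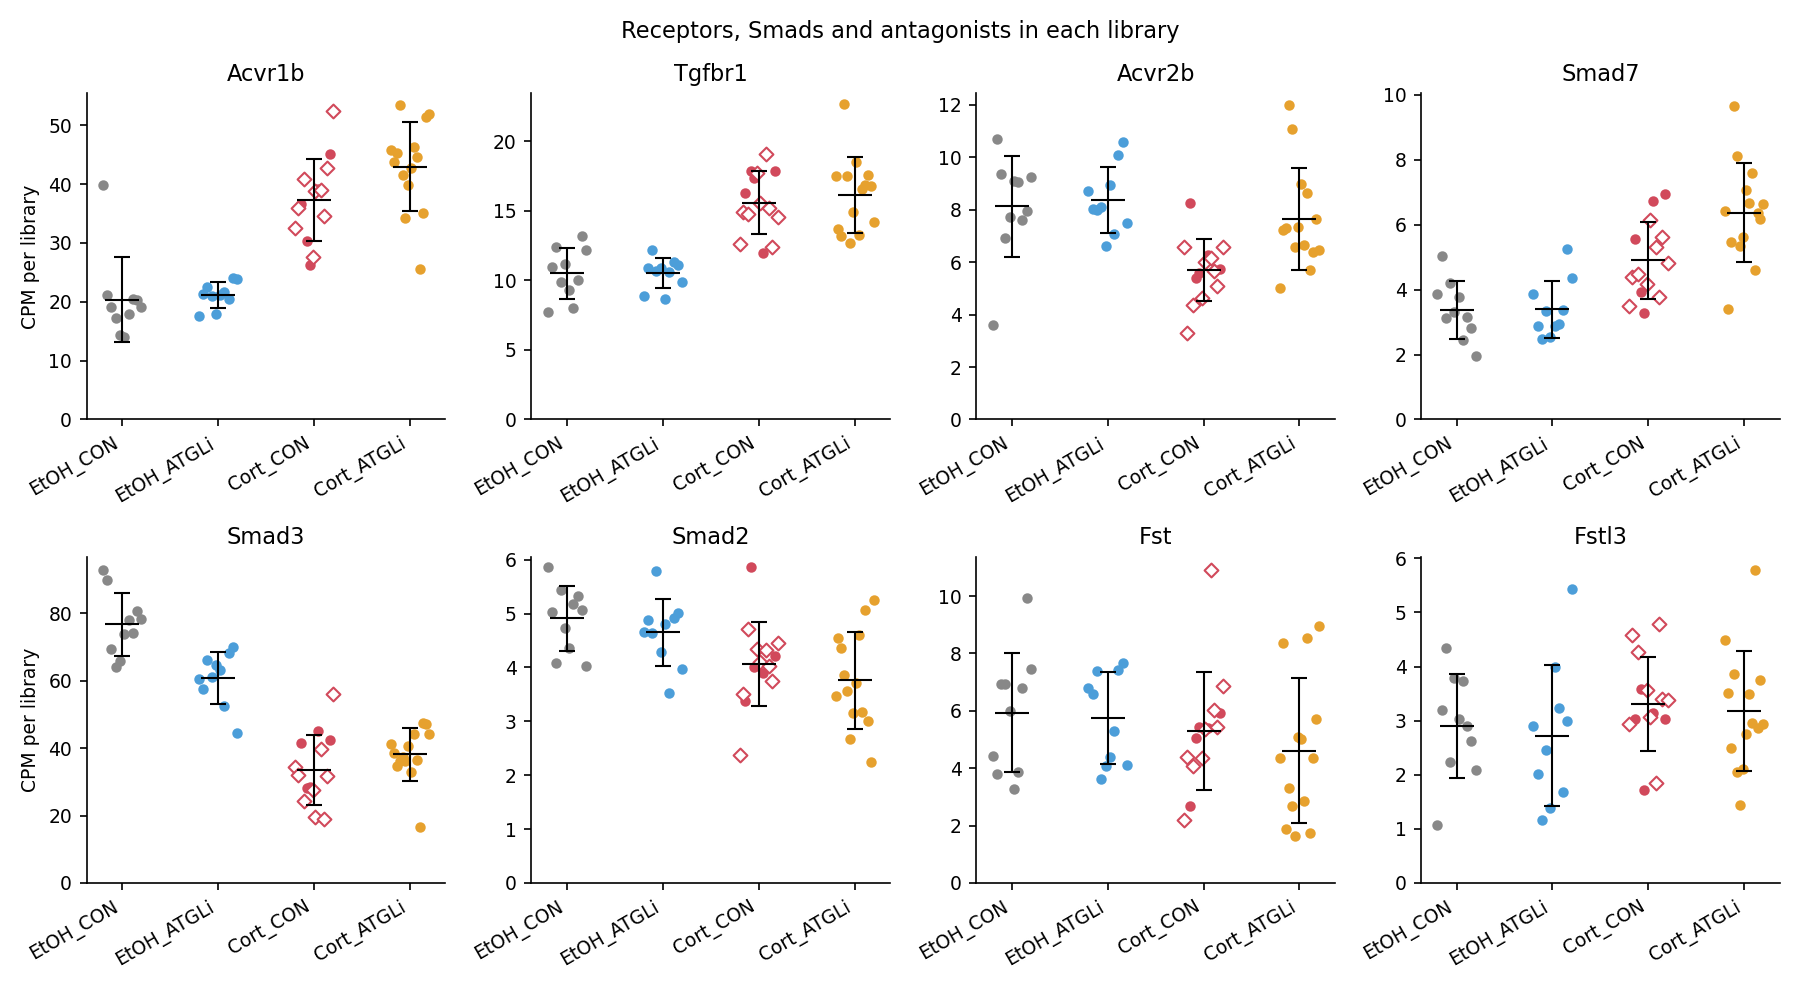
CPM of the receptor, Smad and antagonist genes in each library (linear axes from 0), with mean and SD per group and open diamonds for mice labelled diabetic. Acvr1b, Tgfbr1 and Smad7 sit higher and Smad3 lower in both corticosterone groups, Acvr2b is lowest in Cort_CON, and Fst and Fstl3 overlap across all 4 groups.

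Smad3 encodes a receptor-regulated SMAD that carries the signal of myostatin, activin and TGF-beta to the nucleus, and lies on chromosome 9 (63646767 to 63757994, minus strand). In EtOH_CON its level ran from 64.2 CPM through a median of 76.1 to 92.9 CPM. Cort_CON ran from 19.0 CPM through 31.9 to 56.2 CPM, entirely below EtOH_CON. The groups did not overlap for 4.71% of all genes on this diet. The fitted log2 fold change was −1.19 (SE 0.13), which is 0.438-fold, with an adjusted p of 9.3e-11. Vehicle mice on atglistatin had 44.4 CPM at the lowest, 62.2 at the median and 69.9 at the highest, and Cort_ATGLi had 16.5, 37.9 and 47.6 CPM. All 14 Cort_ATGLi libraries were below the EtOH_ATGLi mean, with overlap between 44.4 and 47.6 CPM. On the log2 scale the difference was −0.68 (SE 0.13), which is 0.626-fold, with an adjusted p of 4.42e-05.

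The Smad3 effect differed between the diets by 0.52 (SE 0.18), with an unadjusted p of 0.00701 and an adjusted p of 0.692, which did not pass. In vehicle mice all 10 EtOH_ATGLi libraries were below the EtOH_CON mean of 76.8 CPM. Smad3 medians were 76.1 CPM in EtOH_CON, 62.2 in EtOH_ATGLi, 31.9 in Cort_CON and 37.9 in Cort_ATGLi. The summed fibroblast and progenitor markers had medians of 1980, 1700, 1150 and 1120 CPM in the same order. Between Cort_CON and Cort_ATGLi the Smad3 difference was 0.18 on the log2 scale (95% interval −0.06 to 0.42, adjusted p 0.584) and was not called. In EtOH_CON the markers Dcn and Gsn alone had medians of 817 and 679 CPM. The part of these markers in the fall of Smad3 was not tested.

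Smad2 encodes the other receptor-regulated SMAD of this branch and lies on chromosome 18 (76241580 to 76310963, plus strand). Its level was low, 4.02 to 5.87 CPM in EtOH_CON (median 5.04) and 2.38 to 5.87 CPM in Cort_CON (median 4.06). The log2 fold change was −0.27 (SE 0.12) with an adjusted p of 0.0652, which did not pass. In EtOH_ATGLi it was 3.53 to 5.80 CPM (median 4.73) and in Cort_ATGLi 2.25 to 5.25 CPM (median 3.64). The log2 fold change there was −0.30 (SE 0.12), with an adjusted p of 0.048. That call ended when any of 16 of the 24 libraries was left out, while the log2 fold change stayed between −0.34 and −0.26.

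Smad7 encodes the inhibitory SMAD, which the pathway itself induces, and lies on chromosome 18 (75367529 to 75395935, plus strand). In EtOH_CON it was 1.94 CPM at the lowest, 3.23 at the median and 5.03 at the highest, and in Cort_CON 3.29, 4.65 and 6.93 CPM. The groups overlapped, and 13 of 14 Cort_CON libraries were above the EtOH_CON mean. In log2 terms the change was 0.54 (SE 0.15), which is 1.45-fold, with an adjusted p of 0.00321. On atglistatin the vehicle values were 2.47, 3.14 and 5.24 CPM and the corticosterone values 3.41, 6.40 and 9.65 CPM. All 14 Cort_ATGLi libraries exceeded the EtOH_ATGLi mean, and the log2 fold change was 0.90 (SE 0.15), which is 1.86-fold, with an adjusted p of 3.36e-06. Over p13 and p14 of each group alone, the libraries that share a title number, Smad7 was not called, at 0.02 (adjusted p 0.98).

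Fst encodes follistatin, the secreted binder of activins and myostatin, and lies on chromosome 13 (114452290 to 114458951, minus strand). Its level was 3.28 to 9.92 CPM in EtOH_CON (median 6.39) and 2.20 to 10.9 CPM in Cort_CON (median 5.38). In EtOH_ATGLi it was 3.62 to 7.66 CPM (median 5.95) and in Cort_ATGLi 1.64 to 8.95 CPM (median 4.37). The fitted log2 fold change was −0.16 (SE 0.24, 95% interval −0.64 to 0.32) on the control diet and −0.30 (SE 0.24, 95% interval −0.79 to 0.18) on atglistatin. The adjusted p-values were 0.635 and 0.366. The groups overlapped, and the intervals allow changes of either sign.

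Fstl3 encodes a follistatin relative that binds myostatin and activins, and lies on chromosome 10 (79777272 to 79782630, plus strand). Medians were 2.97 CPM in EtOH_CON, 2.68 in EtOH_ATGLi, 3.26 in Cort_CON and 2.94 in Cort_ATGLi, and all libraries lay between 1.07 and 5.79 CPM. On the log2 scale the difference was 0.19 (SE 0.21, 95% interval −0.22 to 0.60) on the control diet and 0.23 (SE 0.21, 95% interval −0.18 to 0.64) on atglistatin. The adjusted p-values were 0.491 and 0.442. Neither antagonist gene passed the test in either comparison. Fst overlaps the antisense gene Gm47040 and Fstl3 overlaps Prss57 on the other strand, and neither of these was in the count table.

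**Figure D3:**
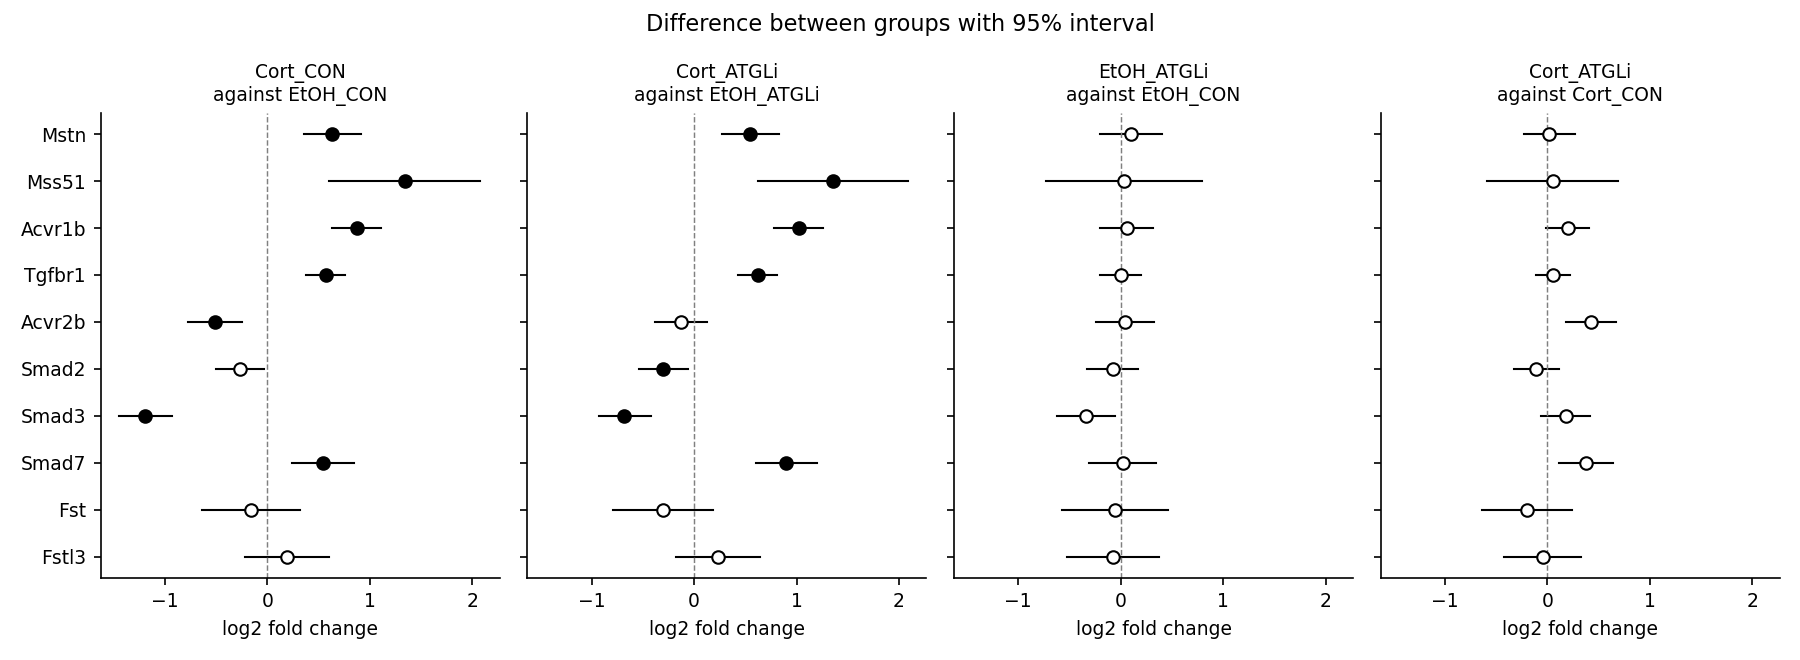
Log2 fold change of each of the 10 genes with its 95% interval in the 4 pairwise comparisons; filled points passed an adjusted p of 0.05 and open points did not. Corticosterone moved 7 genes on each diet (left pair of panels), and atglistatin moved none past the threshold (right pair).

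Atglistatin by itself left the 10 genes without a call. In EtOH_ATGLi against EtOH_CON 0 of the 10 passed edgeR's quasi-likelihood test, beside 0.0238% of all genes (3 of 12592). At an unadjusted p under 0.05 there was 1 of the 10, beside 839 of all 12592 genes. This was Smad3, at −0.34 on the log2 scale (SE 0.14, 95% interval −0.62 to −0.06, unadjusted p 0.02, adjusted p 0.64). Over 10 other settings, which include other tests, Smad3 had log2 fold changes of −0.34 to −0.24. Its adjusted p there ranged from 0.0576, just outside the threshold, to 0.686. DESeq2 and limma voom also called 0 of the 10. The intervals for Mstn (−0.20 to 0.40) and Mss51 (−0.73 to 0.79) show how large a change could have gone undetected. None of the 10 genes was without overlap between these groups, beside 0.0318% of all genes.

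In corticosterone mice the diets were compared as Cort_ATGLi against Cort_CON. Again 0 of the 10 genes passed, beside 1.60% of all genes. At an unadjusted p under 0.05 there were 2 of the 10, beside 1560 of all 12592 genes. Acvr2b was one: its levels were 3.28, 5.70 and 8.26 CPM (lowest, median, highest) in Cort_CON and 5.02, 7.28 and 12 CPM in Cort_ATGLi, where 13 of 14 libraries exceeded the Cort_CON mean. The log2 fold change was 0.43 (SE 0.12), with an unadjusted p of 0.000848 and an adjusted p of 0.0521, just outside the threshold. DESeq2 gave an adjusted p of 0.0309. Leaving out p41 gave 0.0284, and over all 28 single omissions the adjusted p ranged from 0.0259 to 0.121, under the threshold in 9 of them. With nondiabetic Cort_CON mice alone the log2 fold change was 0.30, with an adjusted p of 0.523.

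Smad7 was the other gene, higher by 0.38 on the log2 scale (SE 0.13, unadjusted p 0.00607, adjusted p 0.15). Its medians were 4.65 CPM in Cort_CON and 6.40 CPM in Cort_ATGLi, and 12 of 14 Cort_ATGLi libraries exceeded the Cort_CON mean. For Mstn the difference was 0.02 (SE 0.12, 95% interval −0.23 to 0.27) and for Mss51 0.05 (SE 0.32, 95% interval −0.59 to 0.69). The groups overlapped for all 10 genes, beside 0.00794% of all genes that did not. Acvr2a, the gene of the partner type II receptor of myostatin, was not among the 10 and did pass, at 0.29 on the log2 scale (SE 0.08, adjusted p 0.0391). Its medians were 15.9 CPM in Cort_CON and 19.9 CPM in Cort_ATGLi, and 16.9 and 17.5 CPM in EtOH_CON and EtOH_ATGLi.

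The interaction asks whether the corticosterone effect differed between the diets. For it 0 of the 10 genes passed, beside 0.0397% of all genes (5 of 12592). Smad3 (0.52) and Acvr2b (0.38) had an unadjusted p under 0.05, as above, beside 695 of all 12592 genes. For Mstn the interaction was −0.08 (SE 0.19, 95% interval −0.47 to 0.30) and for Mss51 0.02 (SE 0.49, 95% interval −0.97 to 1.02). The Mss51 interval was the widest of the 10 genes.

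The labels split Cort_CON by disease state, and the 9 diabetic mice were set against the 5 nondiabetic ones. None of the 10 genes passed edgeR's quasi-likelihood test, and the share among all 13084 genes tested in that fit was 0%. At an unadjusted p under 0.05 there were 0 of the 10 and 641 of all genes, and DESeq2 called 0 genes. Mstn was 33.9 CPM at the lowest, 51.3 at the median and 56.5 at the highest in the nondiabetic mice, and 41.4, 62.8 and 71.5 CPM in the diabetic mice. In log2 terms the difference was 0.27 (SE 0.19, 95% interval −0.11 to 0.64). Mss51 had a median of 368 CPM in nondiabetic and 493 CPM in diabetic mice, with a log2 fold change of 0.61 (SE 0.48, 95% interval −0.35 to 1.57).

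Set against EtOH_CON, the 5 nondiabetic mice alone had 4 of the 10 genes past the threshold: Acvr1b (0.79), Smad7 (0.64), Tgfbr1 (0.63) and Smad3 (−1.05). Mstn had a log2 fold change of 0.45 with an adjusted p of 0.0759 there, Mss51 0.91 with 0.116 and Acvr2b −0.39 with 0.112. The number of corticosterone libraries is 5 in place of 14 in this comparison, and 2952 in place of 4838 of all genes passed.

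Insulin spanned 2.19 to 36.0 in Cort_ATGLi without a labelled split, which allowed the 10 genes to be correlated with it across 14 mice. None of the 10 passed a two-sided permutation test after adjustment over the 10 genes. Fst had the strongest relation, with r = −0.59 and rho = −0.55 (permutation p 0.03 and 0.046, adjusted p 0.30 and 0.46). For the other 9 genes r lay between −0.34 and 0.38. With insulin on a log2 scale Mss51 had r = 0.62 (permutation p 0.038, adjusted p 0.27), which was −0.04 without p39 and p41, and Smad3 and Acvr1b had 0.50 and 0.48 (−0.36 and −0.05 without them). Mstn had r = 0.10 and rho = 0.19, and Mss51 had r = 0.38 and rho = 0.22, with permutation p-values of 0.73, 0.51, 0.16 and 0.45.

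One library decided the Fst value. Mouse p41 had the lowest insulin (2.19) and a low Fst level (1.75 CPM), and without it r was −0.88 and rho −0.87 over 13 mice (permutation p 7e-05 and 0.00014, adjusted p 0.0007 and 0.0014). The p-values without p41, here and for fed glucose below, do not allow for the choice of the mouse left out. Over all 14 mice neither relation of Fst passed after adjustment. In those 13 mice r was −0.87 again without p17 and p39, the mice farthest from the median insulin. With p41 kept, r was −0.49 without those 2, and −0.35 over all 14 mice with insulin on a log2 scale. For the other 9 genes r without p41 lay between −0.22 and 0.17, and their adjusted permutation p-values between 0.97 and 0.99. Deposited Fst counts in this group were 16 to 162 per library and all even, so each value carries counting error and may rest on fewer reads. Insulin and fed glucose moved together in the group (r = 0.77, rho = 0.65, permutation p 0.0029 and 0.014), and the relation of Fst with fed glucose, a test added after the data were seen, was r = −0.66 and rho = −0.71 over 14 mice (permutation p 0.013 and 0.006, adjusted p 0.13 and 0.06). Without p41 it was r = −0.81 and rho = −0.80 (permutation p 0.00088 and 0.0016, adjusted p 0.0088 and 0.016).

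**Figure D4:**
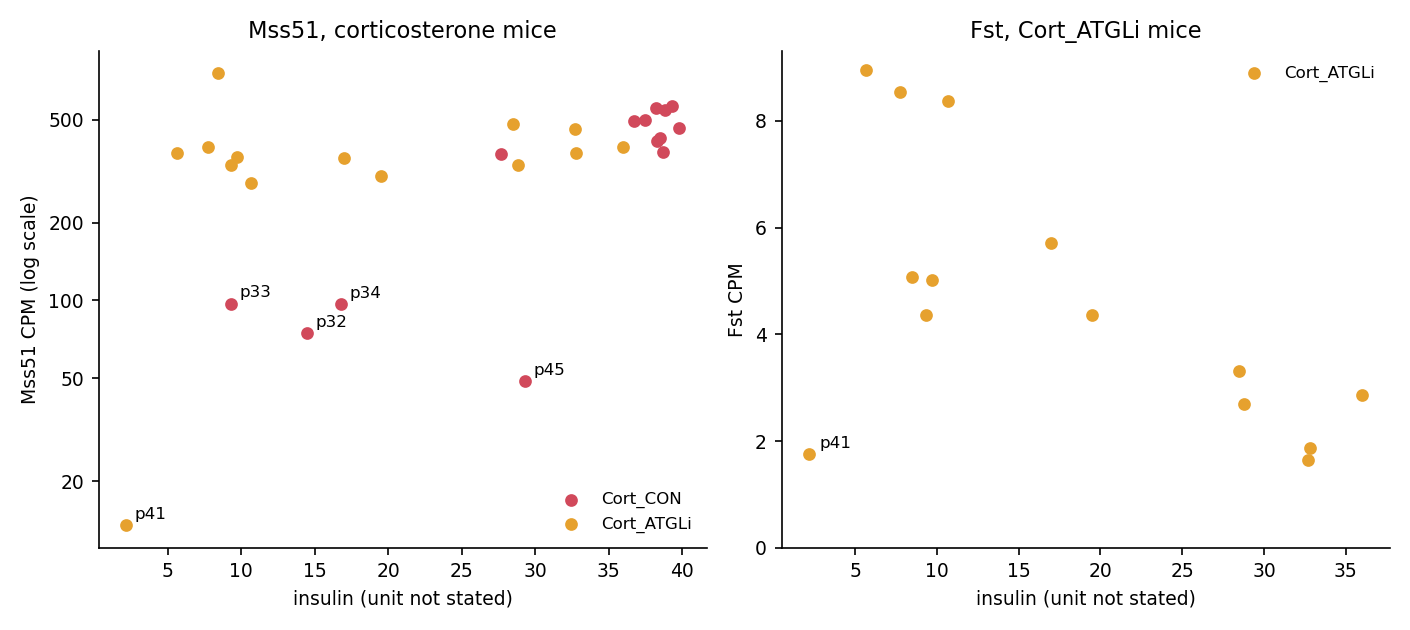
Left: Mss51 (CPM, log axis) against insulin (unit not stated) in the corticosterone mice, with the 5 libraries under 100 CPM named. Right: Fst (CPM, linear axis from 0) against insulin in Cort_ATGLi, where p41 lies at low insulin and low Fst, and among the other 13 mice, at 1.64 to 8.95 CPM, Fst is lower where insulin is higher.

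The genes whose level varied most like that of Mstn among mice of the same group were sought over the 48 libraries. Likeness was Pearson's r of log2 CPM after each group's mean was subtracted, over the 7622 genes whose mean reached 5 CPM. It is given as a description, since all genes share libraries and depth. The highest values were 0.82 for Cldnd1, which encodes a claudin-domain membrane protein, and 0.72 for Tbx15, a T-box transcription factor gene of fast muscle fibres. Cul3, a ubiquitin ligase scaffold gene, Exoc6, an exocyst subunit gene, and Paip1, which encodes a partner of poly(A)-binding protein, each had 0.71. Without p01 and p41 the values were 0.79, 0.66, 0.64, 0.67 and 0.65. Among the pathway genes ranked, Fst came closest with 0.53 (rank 103 of 7622), and 0.47 without those 2 libraries. Mss51 had 0.30 (rank 693), and 0.06 without them. Tgfbr1 had 0.27, Acvr1b 0.21, Smad3 0.07 and Acvr2b −0.05.

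Beyond the 10 genes, 71 others of the TGF-beta family were listed by role, of which 60 were tested. Under corticosterone 11 rose and 21 fell on the control diet, where 18.9% of all genes were higher and 19.5% lower, and the median log2 fold change was −0.25. On atglistatin, where 15% of all genes were higher and 15% lower, 10 rose and 20 fell, with a median of −0.12. In total 53.3% of the 60 were called on the control diet, beside 38.4% of all genes, and the counts by role that follow stand beside the same shares. These lists too were written with earlier results of these data known, so the shares are descriptions and not a test. Of the other ligand genes, 10 were tested, 0 rose, and 4 fell on the control diet and 5 on atglistatin. Bmp5 (−1.07 and −0.96), Gdf10 (−0.91 and −0.52) and Tgfb2 (−0.40 and −0.24) were lower on both diets. Gdf11, the gene of the closest relative of myostatin, had −0.08 and −0.19 without a call.

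The genes for ligand processing and latency showed 1 rise and 3 falls among 6 on the control diet, and 2 and 3 on atglistatin. Bmp1, whose protease family cleaves the myostatin propeptide, fell by 1.15 and 1.00 on the log2 scale. Ltbp4 fell by 1.24 and 1.03 and Ltbp1 by 0.71 and 0.46, while Ltbp3 rose by 0.33 and 0.30. These LTBP genes encode matrix proteins that hold latent TGF-beta. Furin, the protease gene of the first cleavage of the precursor, had 0.03 on the control diet without a call and rose by 0.23 on atglistatin.

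Of 10 other receptor genes, 3 rose and 4 fell on the control diet, and 1 rose and 2 fell on atglistatin. Acvr1, the gene of the BMP type I receptor ALK2, fell by 0.95 and 0.65. Tgfbr2 (−0.39), the gene of the TGF-beta type II receptor, and Eng (−0.47), the endoglin gene, fell on the control diet and were not called on atglistatin. Tgfbr3, the betaglycan gene, rose by 0.33 and 0.31, and Bmpr2 (0.19) and Bmpr1b (0.38) rose on the control diet. Smad4, the gene of the shared partner of SMAD2 and SMAD3, rose by 0.55 (SE 0.08) and 0.49 (SE 0.08), with adjusted p-values of 2.4e-07 and 3.06e-06. Smad4 and Smad3 moved in opposite directions. Smad6 fell by 0.38 on the control diet, and Smad1 and Smad5 were not called on either diet.

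Of 8 other antagonist genes 0 rose, and 4 fell on the control diet and 5 on atglistatin. Fmod, the fibromodulin gene, fell by 2.02 and 2.06, and Fstl1 by 1.74 and 1.19. Fstl1 encodes a secreted glycoprotein related to follistatin by sequence. Dcn, the gene of the matrix proteoglycan decorin, which binds myostatin and TGF-beta, fell by 0.57 on each diet. Dcn is also on the fibroblast marker list and Fmod on the tendon list, whose summed levels fell as given above, and their part in these falls was not tested.

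Among 12 intracellular regulators 1 rose and 2 fell on the control diet, and 3 rose and 1 fell on atglistatin. Ski, a corepressor gene of SMAD3, fell by 0.43 and 0.33, and the ubiquitin ligase gene Smurf1 fell by 0.65 on the control diet. Ppm1a, the gene of a phosphatase of SMAD2 and SMAD3, rose by 0.18 on the control diet. Tgif1, a corepressor gene, rose by 0.81 on atglistatin. Of 10 textbook Smad target genes 5 rose and 3 fell on the control diet and 3 rose and 4 fell on atglistatin, so they did not move in 1 direction.

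Cdkn1a, the gene of the cell cycle inhibitor p21, rose most among them, by 4.11 (SE 0.32) and 2.65 (SE 0.30), from a median of 24.3 CPM in EtOH_CON to 336 CPM in Cort_CON. It is also a known target of glucocorticoids and of p53. It was the 1 target gene of the list that differed between the diets in corticosterone mice, at −0.97 on the log2 scale for atglistatin (SE 0.25, adjusted p 0.0264). Atoh8 rose by 0.88 and 1.07, and Id3 rose by 0.38 on the control diet. Col1a1, a collagen gene and fibroblast marker, fell by 3.62 and 2.85, and Tgfbi fell by 0.67 and 0.58 and Id2 by 0.57 and 0.41. Upper-quartile scaling in place of TMM changed the balance of all calls on atglistatin from 1887 higher and 1894 lower to 1485 higher and 2259 lower, and turned the direction of none of the called results on the 10 genes.

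**Figure D5:**
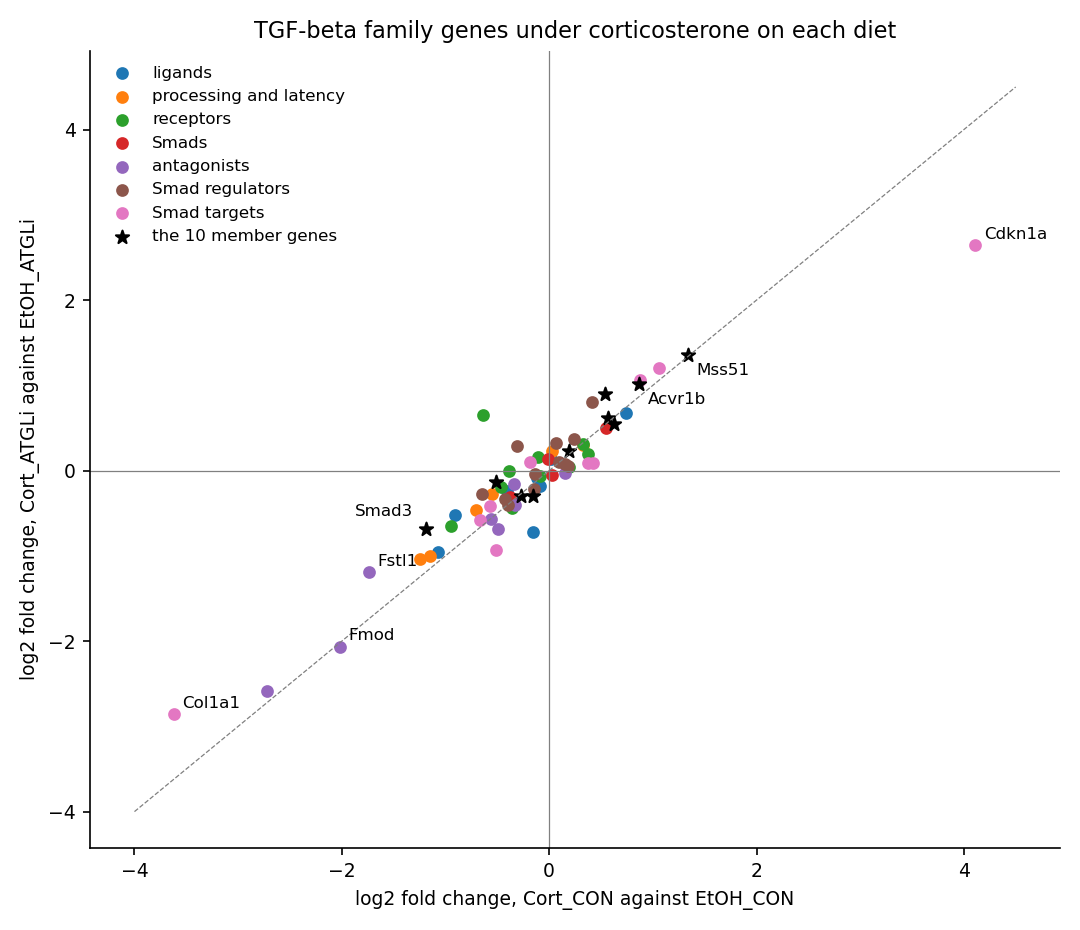
Log2 fold change under corticosterone on the control diet (x axis) and on atglistatin (y axis) for the 60 tested family genes, coloured by role, and the 10 genes (stars), with the line of equality dashed. The antagonist genes Fmod and Fstl1 and the target Col1a1 lie far below 0 on both axes, and Cdkn1a lies highest with a smaller value on atglistatin.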

How the data were processed

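Per the labels' protocols, a QuantSeq kit, which captures 3′ ends, was used with forward reads of 50 bp, so values were not scaled by gene length. No test compared levels between genes. Sums over marker genes and remarks on high or low counts are descriptions. The authors deposited a table of raw counts per gene, with GRCm38, R 3.6.1 and DESeq2 1.24.0 named in the submitters' processing notes. For the aligner, the counter and the strand setting no source used here gives a name. A further deposited table of normalized signal was checked to be each count divided by 1 factor per library and was not tested. In library p13 of EtOH_ATGLi 49.6% of counts were odd, and in the others all were even. No source used here says why, and the counts of the other libraries may stand for fewer reads than their number. All 272 pairs of libraries within groups differed by more than sampling noise (chi-square per degree of freedom of at least 7.87).

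Genes were kept by filterByExpr of edgeR 4.0.16 (minimum count 10, minimum total 15), which left 12592. Counts were scaled by TMM and tested with edgeR's quasi-likelihood test (robust, two-sided, R 4.3.3) in 1 fit of the 4 groups, or of 5 with Cort_CON split by disease state. P-values were adjusted over all genes by Benjamini-Hochberg, with a threshold of 0.05. SEs were derived from the test, and correlations used log2 CPM (prior count 2) and 100000 permutations. DESeq2 1.42.0 and voom of limma 3.58.1 were alternatives. Gene positions are those of GENCODE M21 (GRCm38), and promoters those of RefSeq. The script was tested on simulated data. The members and all gene lists were chosen with earlier results of these data known. All 10 genes were described in every comparison. Of each other list, the text names up to 3 genes per direction with the smallest p on the control diet, up to 2 in other comparisons, and the 5 genes most like Mstn. Gdf11, Furin, Smad1, Smad5, Dcn and the 5 libraries low in Mss51 were named after their values were seen. A gene that this rule would name is not reported here. Intervals cover the spread between libraries, and reads were not counted as independent molecules.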

Additional observations from a re-analysis of the deposited data

Results flagged for a closer look

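The 40 combinations of gene and group examined were those of EtOH_CON, EtOH_ATGLi and the nondiabetic and diabetic mice of Cort_CON. Cort_ATGLi, with 14 libraries, was outside this check, which took groups of 4 to 10 libraries. In 4 combinations a library lay far from the others, measured as its gap to the nearest other library over the range of the group. Chance gives about 1 in 20. In EtOH_CON p01 had the highest Acvr1b level, 39.8 CPM beside 21.2 CPM for the next library, a gap of 0.724 of the range. The same library had the lowest Acvr2b level, 3.61 CPM beside 6.93 CPM, a gap of 0.468. Among the nondiabetic Cort_CON mice p29 had the lowest Fst level, 2.70 CPM beside 5.05 CPM, a gap of 0.732. In that subgroup p36 had the lowest Tgfbr1 level, 12 CPM beside 16.3 CPM, a gap of 0.729.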

How the results depend on the processing

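No called result on the 10 genes turned its direction under any alternative. Of 2109 results on single genes under other settings, 1552 with 1 library left out and 514 others kept their side of the threshold; 26 lost a call (16 and 10) and 17 gained one (12 and 5). Of 1623 that were called in neither setting, 67 differed in sign. With 1 library left out, the genes past the threshold ranged from 4583 to 4918 for Cort_CON against EtOH_CON, 3464 to 3796 for Cort_ATGLi against EtOH_ATGLi, 1 to 21 for EtOH_ATGLi against EtOH_CON, 125 to 354 for Cort_ATGLi against Cort_CON, 2 to 7 for the interaction and 0 to 2 for disease state. The members called ranged from 7 to 8, 6 to 7, 0 to 0, 0 to 1, 0 to 0 and 0 to 0. For EtOH_ATGLi against EtOH_CON the genes called were 22 with halved counts, 5 without p01 and p41, 22 with DESeq2, 28 with voom and 38 with only these groups. The interaction had 8 genes without p01 and p41 and 15 with DESeq2. For Cort_ATGLi against Cort_CON 78 genes passed with only these groups, and 1 member, Acvr2b, passed with upper-quartile scaling, halved counts, DESeq2, and without p01 and p41. For Cort_CON against EtOH_CON 2952 genes and 4 members passed with nondiabetic Cort_CON mice alone. The r of Fst with insulin was −0.88 without p41 and −0.59 with it, where it did not pass after adjustment. Smad2 passed on the control diet with upper-quartile scaling (adjusted p 0.0269). On atglistatin it did not pass with no low-count filter (0.0506) or with only these groups (0.074). The causes were not tested.

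Some libraries of different groups share a title number. Same-numbered libraries did not deviate together (r 0.09, 0.15, 0 and −0.06 for p09 to p12, 0.04 and −0.02 for p13 and p14), so the numbers were not taken as pairs. With a replicate block over the libraries sharing a number, 21 genes passed for EtOH_ATGLi against EtOH_CON (0 without the block), and 1880 genes and 5 members for Cort_ATGLi against EtOH_ATGLi (1555 and 4). With the block Smad7 was at 0 (adjusted p 0.999) and Smad2 at −0.17 (0.786). Without it Smad7 (0.02, 0.98), Smad2 (−0.16, 0.781) and Smad3 (−0.52, 0.108) were not called. Depth is not the only limit on precision: Mss51, with the most counts, had the largest SE.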
